A study of Glycine max with 6 samples.

Results

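Lipoxygenases were represented by 22 of the 37593 soybean (Glycine max) probe sets on a short-oligonucleotide expression array, a probe set being a group of probes read as 1 signal. They were chosen by name alone, as every soybean probe set whose gene symbol in the platform annotation begins with LOX or VLX, and carried 9 symbols between them. LOX3 had 2 probe sets, LOX2 1, LOX1.1 1, VLXB 2, VLXC 1, LOX9 5, LOX7 4, LOXB1 4 and LOX10 1, and 1 further probe set was shared by VLXB, LOX7 and LOXB1 and is not counted for any of them. RNA came from cotyledons, the seed leaves that hold the reserves, taken at 150 mg. The samples were RNAi line 1 and RNAi line 2, independent transgenic lines in which RNA interference was directed at seed storage proteins, and a nontransgenic control, called jack in 1 label. Each of the 3 samples was hybridised to 2 technical replicate arrays. Beyond storage protein suppression, the labels give neither the promoter or target gene of the construct nor the number of seeds behind a sample. The control is 1 sample, so its genotype and its handling cannot be told apart.

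Lipoxygenases are iron-containing dioxygenases that add oxygen to polyunsaturated fatty acids such as linoleic and linolenic acid. The fatty acid hydroperoxides they form are the starting point of the oxylipins, among them the hormone jasmonic acid and volatile aldehydes. Soybean cotyledons store large amounts of seed lipoxygenase, known for the beany flavour of soy products, while leaves and pod walls make a separate set of vegetative lipoxygenases, some of which accumulate as temporary nitrogen stores when seeds are removed. LOX1.1, LOX2 and LOX3 encode the classical seed isoenzymes and VLXB and VLXC vegetative ones.

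The 22 probe sets fell into separate classes of signal. Background was taken for each array as the 95th percentile of the signals of 23350 probe sets designed for other organisms, which lay between 74.2 and 91.7 on the RNAi arrays and at 75.6 and 68.4 on the control arrays. The 4 probe sets of LOX3, LOX2 and LOX1.1 were 423 to 948 times this background on the 6 arrays. Both VLXB probe sets stood 2.65 to 4.66 times above it. VLXC straddled it, at 0.54 to 1.63 times, and the remaining 15 lay close to it or below. The class of abundant seed lipoxygenases was set by a control signal of 30000 or more. The dimmest member inside that limit was an LOX3 probe set with a control mean of 41018, and the brightest outside it was a VLXB probe set with 247, so that no member lay near the limit. Signals of different probe sets depend on their probes, so the classes describe probe sets and do not rank the genes by transcript number.

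**Figure D1:**
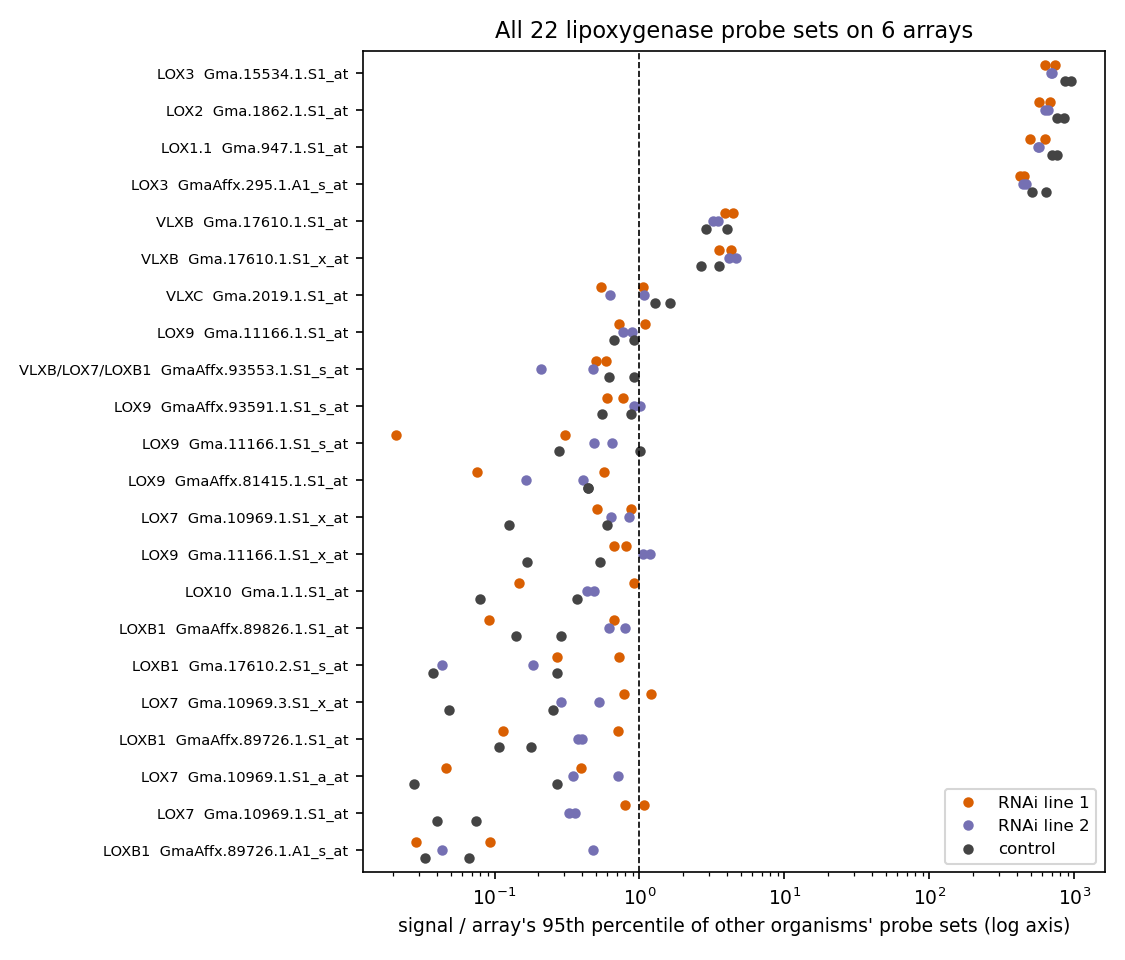
All 22 lipoxygenase probe sets, 1 per row in order of mean control signal, on 6 arrays, as signal divided by the background bound of the array (log axis, dashed line at 1). The 4 probe sets of LOX3, LOX2 and LOX1.1 stand apart at 423 or more, both VLXB probe sets lie at 2.65 to 4.66, and the others lie around or below 1.

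In the genome, members of different classes lie close together. In the RefSeq annotation of assembly Glycine_max_v4.0, LOX2, LOX1.1, LOXB1 and LOX7 lie in 1 cluster, with 0 other protein-coding genes between LOX2 and LOX1.1, 0 between LOX1.1 and LOXB1 and 0 between LOXB1 and LOX7. LOX2 and LOX1.1, which lie together, were among the brightest members. The adjacent LOXB1 and LOX7 were at or below background at each of their 4 probe sets on nearly every array. LOX3 and VLXB, again an abundant and a dim member, lie near each other, with 1 protein-coding gene between them. LOX9 and VLXC share a chromosome but are 249 protein-coding genes apart.

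The deposited signals were compared for both lines together against the control, for each line against the control, and for line 2 against line 1. Differences are given on the scale of log2(signal + 16), which understates those of dim probe sets. Of the 22 members, 8 were above background on both arrays of at least 1 sample and entered the tests, among 27460 soybean probe sets in all. For both lines against the control limma, a linear model with moderated variances, was fitted to the 3 sample means. It called 0 of these 8 lipoxygenase probe sets at an adjusted p below 0.05, and 1.64% of all tested probe sets (3 of the 8 had an unadjusted p below 0.05, and no other tool was run). Single lines were fitted on 6 arrays, so their p-values measure technical spread only. There 0 of 8 were called in line 1 against the control, where 14.3% of all tested probe sets were, and 2 of 8 in line 2 against the control, where 15.4% were. In line 2 against line 1 limma called 0 of 8, and 0% of all tested probe sets. Both calls in line 2 were higher values, where 8.48% of all tested probe sets were called higher. Of these, LOX9, entered the tests only through line 2, so the count of 2 is a description and not support for a rise of the family. At an unadjusted p below 0.05 there were 2, 2 and 0 of the 8 in these 3 comparisons. The share of all tested probe sets below that unadjusted threshold was not counted. These counts, and the 3 of 8 for both lines, therefore do not mark out the family.

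Separation of the arrays was common on the whole array. In both lines against the control, 2 of the 8 lay higher and 2 lower on every RNAi array than on every control array, and 49.5% of all tested probe sets separated in either direction. In line 1 against the control 3 lay higher and 5 lower, where 33.5% and 31% of all tested probe sets did, 64.5% together. In line 2 against the control 2 lay higher and 2 lower, where 32.8% and 29.9% did, 62.6% together. In line 2 against line 1, 2 lay higher and 0 lower, where 17.1% and 18% did, 35.1% together.

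The abundant seed lipoxygenases come first. At its brighter probe set (suffix S1_at) LOX3 had signals of 54742 and 48003 in RNAi line 1, 51072 and 64186 in RNAi line 2, and 65385 and 64839 in the control. All 4 RNAi arrays were below both control arrays, although the second array of line 2 missed the control by little. Lower signals on all 4 RNAi arrays were found at 23.6% of all tested probe sets. The log2 difference of the lines from the control was -0.27 (SE 0.12, adjusted p = 0.237 by limma), a mean of 54501 ± 4424 (SD, n = 2 lines) against 65112 in the control.

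The other LOX3 probe set (suffix A1_s_at) read 33834 and 32295 in line 1, 32827 and 42766 in line 2, and 38790 and 43246 in the control. Line 1 lay below both control arrays, while line 2 had 1 array below the control and 1 between its arrays. Its log2 difference was -0.22 (SE 0.13, adjusted p = 0.32 by limma), close to that of the brighter LOX3 probe set.

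LOX2 had signals of 50622 and 43736 in line 1, 46519 and 60332 in line 2, and 57672 and 57705 in the control. Line 1 was again below the control, and line 2 had 1 array below it and 1 above it. The log2 difference was -0.21 (SE 0.13, adjusted p = 0.33 by limma), from a mean of 50302 ± 4417 in the lines (SD, n = 2) and 57688 in the control.

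LOX1.1 read 46960 and 38020 in line 1, 41720 and 52493 in line 2, and 52587 and 51658 in the control. Line 1 lay below both control arrays, the first array of line 2 did too, and its second array lay between them. The difference was -0.23 (SE 0.12, adjusted p = 0.276 by limma), with 44798 ± 3264 in the lines (SD, n = 2) and 52123 in the control.

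**Figure D2:**
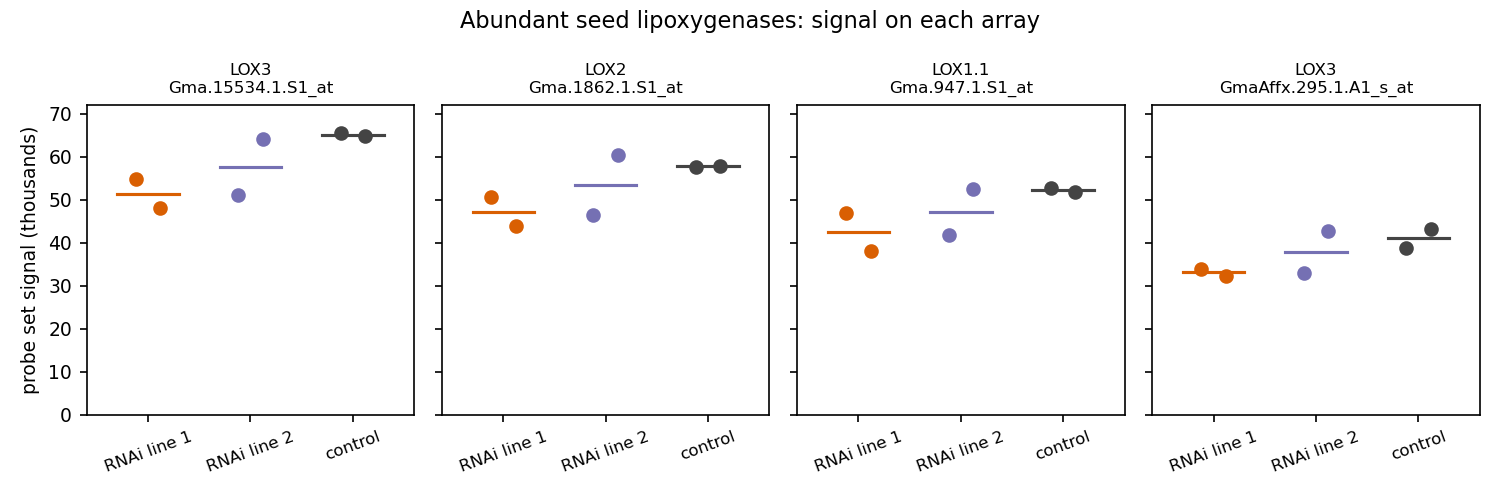
Signals of the 4 abundant lipoxygenase probe sets in RNAi line 1, RNAi line 2 and the control. Points are single arrays and bars the mean of a sample's 2 technical arrays. Line 1 lies below both control arrays in every panel, whereas the 2 arrays of line 2 lie far apart and the upper one reaches 42766 to 64186.

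None of the 4 abundant probe sets passed the test in any comparison at the deposited scaling. The intervals hold for that scaling only, and with 1 control sample they do not cover spread between control samples. For both lines against the control, the 95% interval of the log2 difference ran from -0.64 to 0.11 for the brighter LOX3 probe set, from -0.59 to 0.17 for LOX2 and from -0.59 to 0.13 for LOX1.1. In percent of the control signal, the estimates were -16.8% for LOX3, -13.4% for LOX2 and -14.7% for LOX1.1. The intervals reach down to -35.7% for LOX3 and up to 12.8% for LOX2. These directions turn with the scaling of the arrays. LOX2 and LOX1.1 came to 0.035 and 0.025 after quantile normalization, and all 4 probe sets were 1.31 to 1.37 higher in the lines when arrays were rescaled by their poly-A spike RNAs. The geometric mean signal of those 24 spike probe sets was 1826 to 1944 on the RNAi arrays, against 5538 and 5736 on the control arrays.

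At the 4 abundant probe sets the technical arrays lay furthest apart in line 2. The second array of line 2 was above the first by 0.33 to 0.38 on the log2 scale. In line 1 the second array was lower, with differences from the first of -0.30 to -0.07, and in the control they ran from -0.03 to 0.16. Other bright soybean probe sets moved with them. Over the 201 other soybean probe sets with a control signal of 30000 or more, the median difference between the second and the first array was 0.29 in line 2, -0.15 in line 1 and 0.03 in the control.

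The abundant lipoxygenases were then set beside these equally bright probe sets. The median log2 difference of both lines from the control was -0.22 over the 4 lipoxygenase probe sets, -0.20 over the 201 others and 0.016 over all tested probe sets. Of the 201 others, 50 had a lower value than the brighter LOX3 probe set, 77 a lower one than LOX1.1, 82 than the other LOX3 probe set and 91 than LOX2. The bright probe sets also spread little, with a median absolute deviation of 0.07 against 0.26 over all tested probe sets. The highest signal on an array ran from 55106 to 86709, so these bright probe sets lie toward the top of the scale. Whether signals are compressed there was not tested. Measured on each array against the median of the 201, the 4 lipoxygenase probe sets differed from their control level by -0.14 to 0.03 on the 4 RNAi arrays. The brighter LOX3 probe set was the only one of the 4 below its control level on all 4 RNAi arrays by this measure, at -0.12 to -0.06.

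Each line was then set against the control in this class. In line 1 the 4 probe sets had log2 differences from the control between -0.34 and -0.29, with all 4 below both control arrays, as were 174 of the 201 other bright probe sets and 31% of all tested probe sets. In line 2 they had between -0.19 and -0.12, with 1 of 4 below both control arrays, against 61 of the 201 and 29.9% of all tested probe sets. Line 2 was higher than line 1 by 0.15 to 0.18, with adjusted p-values of 0.97 or more, and the 201 others had a median of 0.12 in the same direction. The 95% interval of that difference for LOX2 ran from -0.23 to 0.57.

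**Figure D3:**
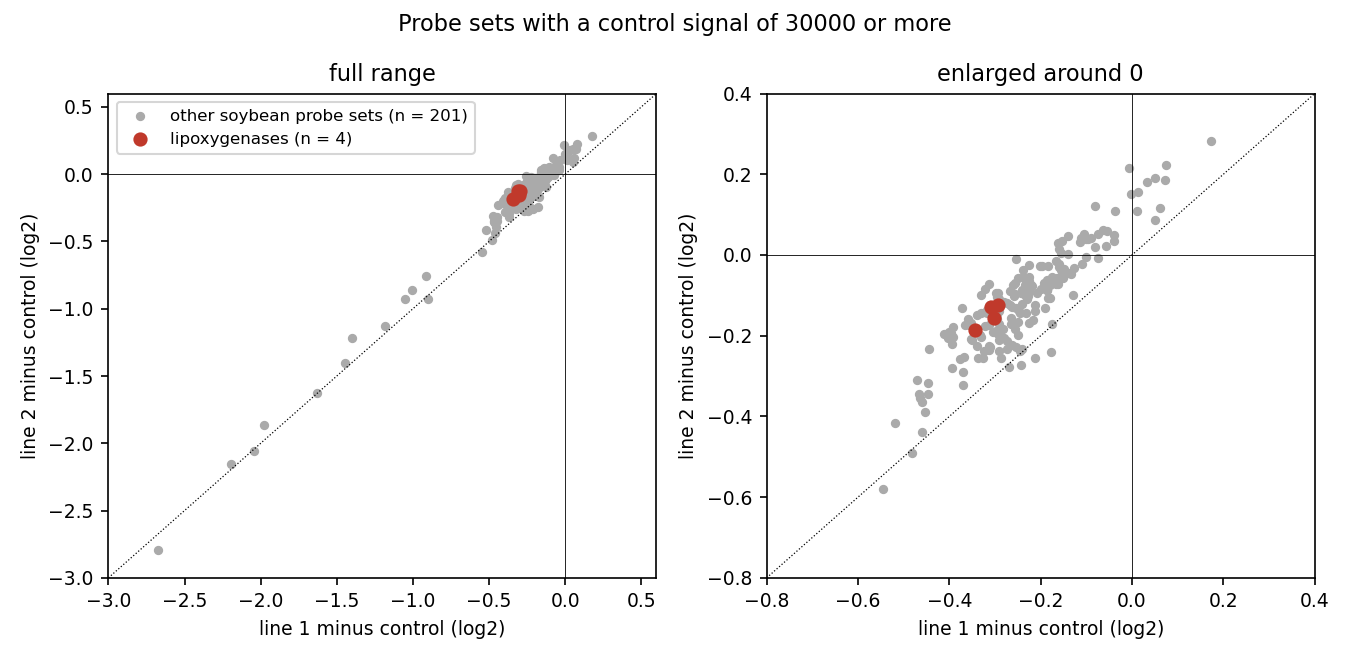
Log2 differences from the control of RNAi line 1 (x axis) and RNAi line 2 (y axis) for the 201 other soybean probe sets with a control signal of 30000 or more (grey) and the 4 abundant lipoxygenase probe sets (red), at full range and enlarged, with the dotted line where both lines are equal. The lipoxygenases lie within the main body of points, at -0.34 to -0.29 in line 1 and -0.19 to -0.12 in line 2, away from the probe sets that reach below -2.

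VLXB, a vegetative lipoxygenase, was the only dim member measured above background on all 6 arrays. Its probe set with the suffix S1_x_at read 321 and 269 in line 1, 346 and 377 in line 2, and 200.4 and 241 in the control. All 4 RNAi arrays lay above both control arrays, as did those of 25.9% of all tested probe sets. The log2 difference of both lines was 0.54 (SE 0.17, adjusted p = 0.137 by limma), with 328 ± 47.3 in the lines (SD, n = 2) and 221 in the control. In line 2 alone it rose by 0.68 (SE 0.14, adjusted p = 0.037 by limma on 6 arrays), and line 1 had 0.39 (adjusted p = 0.125).

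The other VLXB probe set (suffix S1_at) gave a weaker separation. It read 293 and 336 in line 1, 260 and 294 in line 2, and 219 and 275 in the control, so that 1 array of line 2 lay between the control arrays. The log2 difference of both lines was 0.25 (SE 0.13, adjusted p = 0.269 by limma), and 0.16 in line 2 (adjusted p = 0.489). Of the 2 probe sets, only the x one passed in line 2. By the naming of these arrays, the suffix x marks probes that may also match other sequences. The call in line 2 was lost under the removal of any 1 array, with adjusted p-values of 0.0601 to 0.139, and was kept after quantile normalization (0.64, adjusted p = 0.0433). Line 2 against line 1 gave 0.28 at the x probe set and -0.17 at the other (adjusted p = 0.926 and 0.97), so the lines were not shown to differ.

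VLXC, another vegetative lipoxygenase, was dim everywhere. Its single probe set had 79.4 and 41.3 in line 1, 80.0 and 57.7 in line 2, and 123 and 87.9 in the control. All 4 RNAi arrays lay below both control arrays, as did those of 23.6% of all tested probe sets. Only the first array of each line was above background. The probe set entered the test through the control, where it was above background on both arrays, so a lower value in the lines was favoured by that choice. The log2 difference of both lines was -0.61 (SE 0.13, adjusted p = 0.0874 by limma), with 64.6 ± 6.02 in the lines (SD, n = 2) and 106 in the control. In line 1 it was -0.70 (adjusted p = 0.169) and in line 2 -0.52 (adjusted p = 0.277). Under spike scaling its direction turned, to 0.68, where the median over all tested probe sets was 1.52.

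LOX9 had 5 probe sets, of which 1 was tested. That probe set (suffix S1_x_at) read 60.1 and 50.9 in line 1, 87.4 and 97.3 in line 2, and 12.7 and 36.4 in the control. The groups did not overlap, yet the signal was above background only in line 2, through which the probe set entered the test. In line 2 limma called it higher (adjusted p = 0.0315), a direction favoured by that choice. Since both control arrays were below background, the difference is only a bound, at least 1.28-fold. For both lines together the bound came below 1, so no fold is given (adjusted p = 0.106). Line 1 was below background on both arrays as well, so no size is given for line 2 against line 1 (adjusted p = 0.921).

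The remaining LOX9 probe sets did not repeat this. They read from 1.58 to 83.4 on the RNAi arrays and from 18.9 to 76.3 on the control arrays, and 3 of their 24 readings were above background. The LOX9 probe set with the highest control mean had 81.5 and 55.6 in line 1, 57.4 and 81.2 in line 2, and 69.0 and 45.4 in the control. The groups overlapped there. Leaving out either array of line 2, or either array of line 1, ended the call at the tested probe set, with adjusted p-values between 0.0623 and 0.126. At a pseudocount of 1 the adjusted p was 0.0512.

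**Figure D4:**
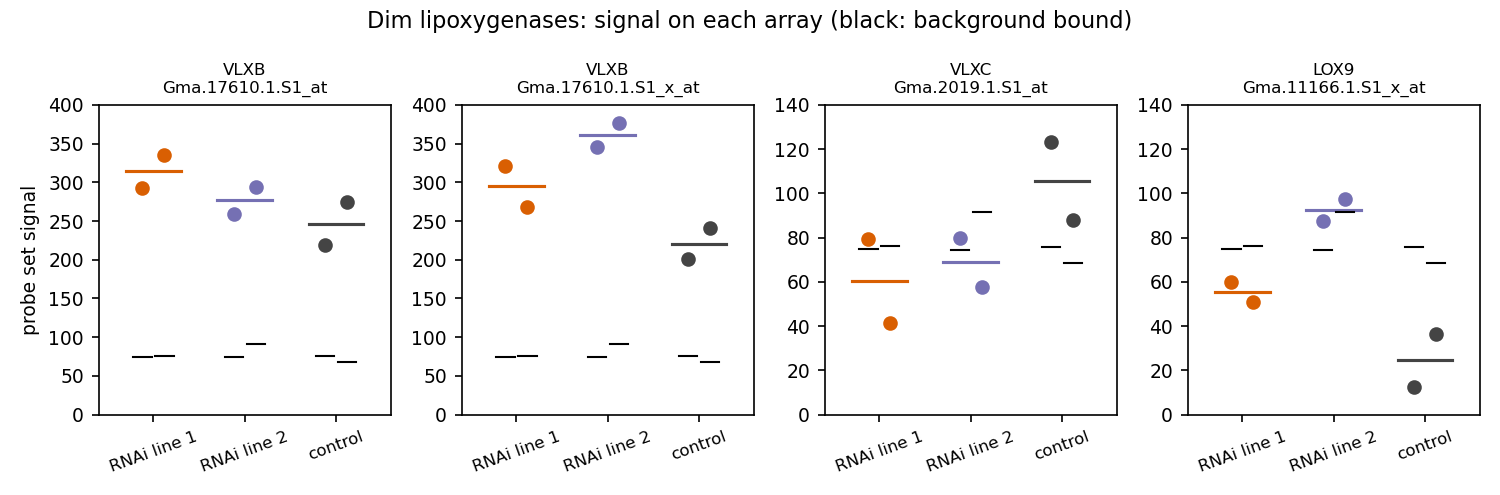
Signals of the VLXB, VLXC and LOX9 probe sets that were tested, in RNAi line 1, RNAi line 2 and the control. Points are single arrays, coloured bars the mean of a sample's 2 technical arrays and black dashes the background bound of each array. VLXB is above the bound on all arrays, VLXC on both control arrays and 1 array of each line, and LOX9 only on the arrays of line 2.

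LOX7, LOXB1 and LOX10 were not measurable in these cotyledons. LOXB1, which RefSeq also lists under the synonym VSP94, was below background in 24 of 24 readings at its 4 probe sets, with 2.19 to 72.5 on the RNAi arrays and 2.51 to 21.6 on the control arrays. LOX10 was below background on all 6 arrays, with 11.2 to 68.6 on the RNAi arrays and 6.04 and 25.5 on the control arrays. LOX7 had 2 of 24 readings above background, both in line 1, with 3.52 to 92.2 on the RNAi arrays and 2.10 to 41.1 on the control arrays. The probe set shared by VLXB, LOX7 and LOXB1 read 15.4 to 43.9 on the RNAi arrays, and 69.0 and 42.4 on the control arrays, never above background. Values this low have no reliable order, and no fold is given for them.

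By likeness of their differences in both lines over the 3 samples, the named genes closest to the brighter LOX3 probe set were ADR11, PIP2-6 and BBI. Their distances in the plane of the line 1 and line 2 log2 differences were 0.014, 0.018 and 0.018, and 47 of 1181 candidate probe sets with a named gene lay within 0.1. Closest to VLXC were WRKY33, RPL2 and SC-03, at 0.021, 0.026 and 0.032. There 12 candidates lay within 0.1. For LOX9, whose control level is only a bound, no distance is given. The likeness rests on 3 samples and on differences that share the control. The difference of each line from the control had an SE of 0.15 at LOX3 and 0.30 at VLXC, larger than the distances given. At VLXC, moreover, only the first array of each line was above background. The identity and order of these neighbours therefore cannot be relied on.

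Genes that supply lipoxygenases or use their products were read from lists of symbols. Substrate supply was represented by fatty acid desaturases, which make the linoleic and linolenic acid that lipoxygenases oxidise, with 11 of 13 probe sets tested. In both lines against the control 3 were called lower and 0 higher, with a list median of -0.55 beside 0.016 over all tested probe sets, of which 1.64% were called in either direction. The called probe sets were both of FAD2-2 and the one of FAD2-3, oleate desaturase genes. FAD2-1A, the bright seed oleate desaturase gene, had 22094 and 19902 in line 1, 20675 and 22830 in line 2, and 46093 and 49210 in the control at its brighter probe set. All 4 RNAi arrays lay far below the control there, a log2 difference of -1.16 (adjusted p = 0.0505 for both lines by limma, 0.00724 for line 1 and 0.00772 for line 2). FAD3C, a linoleate desaturase gene, had -0.45 in both lines together (adjusted p = 0.0893), with -0.45 in line 1 (adjusted p = 0.0473) and -0.45 in line 2 (adjusted p = 0.0463). Of all tested probe sets 23.6% lay lower on all 4 RNAi arrays, 14.3% were called in line 1 and 15.4% in line 2. Unlike the abundant lipoxygenases, the FAD2-1A probe sets lay outside the main body of bright probe sets.

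Enzymes that act on lipoxygenase products showed 0 calls for both lines together among 6 tested of 8 probe sets (list median 0.09). AOS1 and AOS2 encode allene oxide synthase, the first enzyme of the jasmonate branch. AOS2 read 158 and 149 in line 1, 136 and 135 in line 2, and 130.3 and 92.8 in the control, a log2 difference of 0.34 (adjusted p = 0.17 by limma). All 4 RNAi arrays lay above both control arrays there, as did those of 25.9% of all tested probe sets. AOS1 had 0.30 at 1 of its probe sets (adjusted p = 0.153). AOC3, which encodes allene oxide cyclase, the next enzyme, had -0.32 at its S1_a_at probe set (adjusted p = 0.316). That probe set fell by 0.50 in line 2 (adjusted p = 0.0348), where 15.4% of all tested probe sets were called. Another of the gene had 0.0073 in both lines together.

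The list of jasmonate signalling and response held COI1, the jasmonate receptor gene, and VSPA, a vegetative storage protein gene known to respond to jasmonate, with 9 of 14 probe sets tested. In both lines 2 were called higher and 0 lower, both of VSPA (list median 0.20), again beside 1.64% of all tested probe sets called. The remaining tested VSPA probe sets had 0.98 (adjusted p = 0.0517 by limma) and -0.02 (adjusted p = 0.914). COI1 at its S1_s_at probe set had 0.54 (adjusted p = 0.0962) and rose by 0.63 in line 2 (adjusted p = 0.0255). The other 4 tested COI1 probe sets had -0.05, 0.13, 0.19 and 0.20 in both lines together, and none was called in either line. A list of other seed proteins, chosen by symbol, holds the storage proteins themselves and also dim probe sets. Among its 20 tested probe sets 6 were called lower and 0 higher (list median -0.30), beside the same 1.64%. The 6 were GY3 (-3.44), both probe sets of CG-BETA-1, both of GY2, and dim BBI-2, at 395 and 387 in the control. For both lines together 5 of the 20 lay above 0. Line 1 had 8 called lower and 1 higher, and line 2 had 8 lower and 3 higher. Of all tested probe sets 14.3% were called in line 1 and 15.4% in line 2. The calls for both lines together in all these lists lay just under the threshold, and limma called 0 of all tested probe sets after quantile normalization and without any 1 array of an RNAi line. The list members were picked by symbol with earlier results of these data known, so these counts are a description.

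**Figure D5:**
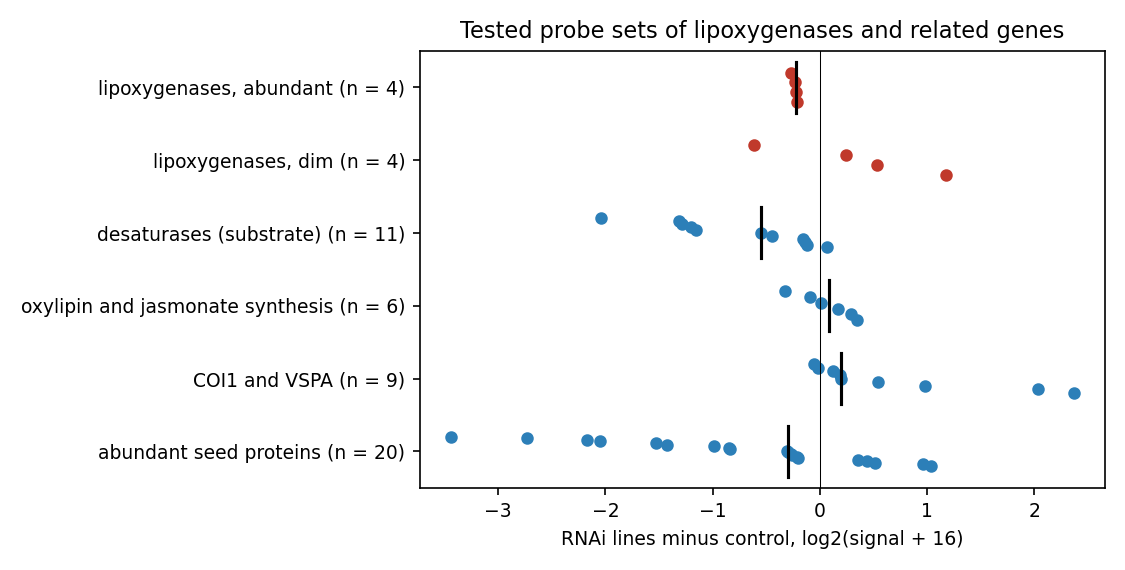
Log2 differences of both RNAi lines from the control for the tested probe sets of abundant and dim lipoxygenases (red) and of related lists (blue). Each point is a probe set, and vertical bars are medians, drawn for all rows but the dim lipoxygenases. The abundant lipoxygenases lie between -0.27 and -0.21, while desaturases reach -2.04 and VSPA 2.37.

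Some markers of other tissues differed between the groups as well. The summed signal of 6 seed coat probe sets was 7739 to 7822 in line 1, 7699 to 9080 in line 2, and 17473 to 18507 in the control. Of the 4 tested, SBPRP and 1 of 2 PRP2 probe sets were called lower and SCB1 higher in both lines, where 1.64% of all tested probe sets were called, and ANR1 and PRP1 were below background on all arrays. The 14 probe sets of leaf and vegetative markers summed to 103051 to 116563 in line 1, 104462 to 141755 in line 2, and 130427 to 136908 in the control. The range of line 2 covers that of the control. Bright CAB3 probe sets make up most of this sum, so it does not describe the dimmer markers. They had -0.23, -0.19 and -0.27 for both lines and were not called, and a dim CAB3 probe set had 0.32. Of the 14 probe sets 9 were tested. For both lines together 3 were called higher (ELIP and 2 of VSPA) and 0 lower, beside the same 1.64%. Storage parenchyma markers, 11 probe sets that include suppressed storage proteins, summed to 216326 to 240813 in line 1, 227659 to 278069 in line 2, and 460707 to 479025 in the control. The part of these markers in the values of VLXB, VLXC and LOX9 was not tested, and fewer cells of a type and less RNA per cell cannot be told apart in such samples.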

How the data were processed

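Total RNA from cotyledons was labelled with a one-cycle kit and hybridised to an Affymetrix array, per the labels. The authors' deposited values are an intensity (linear signal) for each of 61170 probe sets on 6 arrays. The values show a shared scaling: without the lowest and highest 2% of probe sets the mean of every array was 499.9. The software that made them is not given in the sources used here. Array medians ran from 57.8 to 72.4, and the number of arrays limits the precision. The order of genes and symbols came from RefSeq (Glycine_max_v4.0). No build is named for the array, so no coordinates are given.

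A soybean probe set was tested if it exceeded the 95th percentile of other organisms' probe sets on both arrays of at least 1 sample. Values were log2(signal + 16), fitted with limma 3.58.1 in R 4.3.3 (lmFit, eBayes, two-sided), with Benjamini-Hochberg adjustment over all 27460 tested probe sets. Both lines against the control used 3 sample means, with 1 residual degree of freedom (prior 2.36). Single lines used 6 arrays in 3 groups, with 3 (prior 2.35), so their p-values cover technical spread. A probe set below background on all arrays of 1 side has a bound, the brighter side's geometric mean over the geometric mean of the dim arrays' background bounds. The fits were also run on simulated data in which 200 of 27460 probe sets were changed, by a factor of 4 or 2. For both lines together, 100% of the larger changes and 52% of the smaller were recovered, beside 21 false calls. Line 1 had 98% and 58%, and line 2 had 99% and 57%, with 10 false calls each. The control is 1 sample, so this run is no check on spread between control samples. Named are all 22 members and the 3 named genes nearest to LOX3 and VLXC (those of LOX9 are left out, its control being below background). From the lists, members called for both lines together or with the largest differences are named. TIR1C, whose symbol begins like the trypsin inhibitors, was left out of its list. Alternatives were other scalings, filters, pseudocounts, moderation, array removal and replicate structures. The members and lists were chosen with earlier results of these data known.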

Additional observations from a re-analysis of the deposited data

Results flagged for a closer look

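LOX9 at its S1_s_at probe set was marked for its position around the mean control level on the log2(signal + 16) scale. On that scale every array of line 1 lay below this mean and every array of line 2 above it. It read 1.58 and 23.3 in line 1, 48.2 and 44.6 in line 2, and 76.3 and 18.9 in the control. The computed difference of line 2 from line 1 was 1.25 on the log2(signal + 16) scale, but all 4 RNAi readings were below background, so its size and direction cannot be relied on. The control arrays lay far apart, and only 1 of the 6 readings, in the control, was above background. The difference between the lines was not tested at this probe set.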

How the results depend on the processing

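In both lines against the control, where limma called 0 of 8 lipoxygenase probe sets, it called 2 with arrays as replicates, 2 with centring on other bright probe sets (chosen after seeing the data), 1 with a variance trend, 8 with spike scaling, 3 with the sample as a random block and 0 without any 1 array. With the replicate block it called 1 (VLXC), but replicate numbers did not pair the samples, with correlations of deviations of 0.017, 0.015 and -0.0075. Line 1, with 0, had 1 with centring on bright probe sets, 1 with no filter, 7 with spike scaling and 0 to 1 without 1 array. Line 2, with 2, had 1 with the 99th percentile filter, 0 with no filter, 7 with spike scaling, 1 at a pseudocount of 1, 0 with the replicate block and 0 to 1 without 1 array. Removing an array leaves a sample with 1, assumed to vary like the others. Over all tested probe sets the 451 calls for both lines became 6733, 6072, 8517, 26511, 5940 and 10196 under the first 4 of these settings, the replicate block and the random block. They became 3323 with the 99th percentile filter, 3547 at a pseudocount of 64, 1231 and 1884 without either control array, and 0 with median centring, quantile normalization, no filter, a pseudocount of 1, robust moderation, or without any 1 RNAi array. The estimated correlation within samples was negative for the random block. Line 1 (3924) and line 2 (4226) had 6902 and 7334 with a variance trend, 1065 and 1132 with no filter, 26449 and 26464 with spike scaling, 2201 and 2545 with the replicate block, 329 to 2518 and 527 to 2045 without 1 array, and line 2 had 2689 with centring on bright probe sets, where line 2 against line 1 (0) had 5. The median of the abundant lipoxygenases, -0.22, became -0.038 with centring on bright probe sets, 1.36 with spike scaling, 0.010 with quantile normalization and -0.31 to -0.13 without 1 array. Directions turned with spike scaling for both lines, line 1 and line 2 in LOX1.1 (1.35, 1.28, 1.42), LOX2 (1.37, 1.29, 1.46), LOX3 at its brighter (1.31, 1.24, 1.39) and dimmer probe set (1.36, 1.27, 1.45), and VLXC (0.68, 0.58, 0.78). Spike scaling also moved the median of all tested probe sets for both lines, from 0.016 to 1.52. Quantile normalization turned LOX1.1 (0.025, 0.026, 0.023, and -0.0030 for line 2 against line 1), LOX2 (0.035, 0.041, 0.029 and -0.012) and the brighter LOX3 probe set in line 2 (0.0081). Centring on bright probe sets turned line 2 in LOX2 (0.0092) and the dimmer LOX3 probe set (0.0036). Without 1 array, line 2 ran from -0.32 to 0.010 in LOX1.1, -0.31 to 0.065 in LOX2 and -0.32 to 0.062 in the dimmer LOX3 probe set. Line 2 against line 1 ran from -0.018 to 0.31 in LOX1.1, -0.016 to 0.36 in LOX2, -0.0054 to 0.32 and -0.010 to 0.37 in LOX3 and -0.18 to 0.55 in VLXC. The cause was not tested. The line 2 calls had adjusted p-values of 9.81e-05 to 0.126 (LOX9) and 6.37e-05 to 0.139 (VLXB) over the alternatives.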

Other observations

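The name rule leaves out LOC547835, which the RefSeq table also lists as LOX1.4 and loxA and places directly beside VLXC, with 0 protein-coding genes between them. It had 5 probe sets, 3 of them tested. At the brightest it read 967 and 882 in line 1, 996 and 883 in line 2, and 1283 and 1289 in the control. All 4 RNAi arrays lay below both control arrays, a log2 difference of -0.46 for both lines (adjusted p = 0.0868 by limma on the sample means), -0.47 for line 1 (adjusted p = 0.0483) and -0.45 for line 2 (adjusted p = 0.0516). Another had 173 and 188 in line 1, 223 and 242 in line 2, and 265 and 300.5 in the control, a difference of -0.43 (adjusted p = 0.213), with -0.60 in line 1 (adjusted p = 0.0299) and -0.26 in line 2 (adjusted p = 0.168), and the third had -0.19 (adjusted p = 0.364). The s in these names marks probe sets that may match several transcripts of a family. Of all tested probe sets 23.6% lay lower on all 4 RNAi arrays than on both control arrays, and 14.3% were called in line 1. LOC547835 was looked at after its values could be seen.

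Without the filter on dim probe sets, 1 more lipoxygenase was called in line 1. LOX7 at its S1_at probe set read 59.7 and 81.5 in line 1, 26.5 and 30.1 in line 2, and 5.67 and 2.76 in the control, with an adjusted p of 0.0262. Of the 4 RNAi readings 1 was above background, and both control readings lay far below it.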
